A study of Mus musculus with 10 samples.

Results

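The fibroblast growth factor (FGF) and platelet-derived growth factor (PDGF) ligands and receptors were taken as all genes on the array whose name in the scanner files is Fgf followed by a number, Fgfr1 to Fgfr4, Fgfrl1, Pdgfa to Pdgfd, Pdgfra, Pdgfrb or Pdgfrl. This rule found 34 genes, measured by 55 probes, among the 34718 gene names of the array. Of these, 26 genes exceeded background clearly on each of the duplicate arrays in 1 or more groups and were tested together with all 22595 genes that met the same condition. The 8 genes that did not meet it were Fgf3, Fgf4, Fgf5, Fgf12, Fgf15, Fgf16, Fgf17 and Fgf20, and of these Fgf17 was above background on 1 array. A member that met the condition through a single group was bound to look high there. This holds for Fgf9 in Rb-/-p53-/- cells from fat and Fgf1 in wild-type cells from fat, whose excess there is given without a p-value. Both are counted below wherever they passed the threshold, and in comparisons with that group their passing was fixed in part by the condition.

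The arrays measured cultured mouse mesenchymal stem or stromal cells of the FVB strain in 5 groups of 2 arrays each, from duplicate independent cultures per the labels. The groups were wild-type cells from fat (wild-type ASC), wild-type cells from bone marrow (wild-type BM-MSC), Rb-/-p53-/- ASC, Rb-/-p53-/- BM-MSC, and 1 tumor cell line. The Rb-/-p53-/- cells, called null below, started from cultures with loxP-flanked Rb and p53 alleles that were kept in osteogenic medium for 10 days, after which an adenovirus carrying Cre under the ubiquitous CMV promoter (Ad-CMV-Cre) excised both genes. The labels do not say that the wild-type cells were primed in osteogenic medium or given the virus, so genotype, priming and virus cannot be told apart. The tumor line was established from 1 tumor that grew after null BM-MSC were inoculated under the skin of immunodeficient NSG mice, so its 2 arrays stand for a single line. The labels call the null BM-MSC and the tumor line tumorigenic, and the other groups not. All cells were grown in the same medium before RNA was taken.

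FGF ligands bind receptor tyrosine kinases (Fgfr1 to Fgfr4) on heparan sulfate, and the activated receptor recruits the adaptor Frs2 and feeds the Ras and MAP kinase cascade, which induces its own inhibitors of the Sprouty and Dusp families. PDGF dimers signal through the receptor kinases Pdgfra and Pdgfrb, which are classical surface proteins of mesenchymal cells. In bone, FGF signals act on osteoprogenitors and growth plate cartilage, where Fgf18 and Fgfr3 are known regulators, and stromal Fgf7 and Fgf10 are known for acting on neighbouring epithelium.

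Array quality was even: 53.3% to 58.4% of spots per array were well above background, and duplicate arrays correlated at 0.994 to 0.996 across probes. The wild-type and null arrays shared 1 slide and the tumor arrays lay on another, so slide and tumor line cannot be told apart. Each group has 2 arrays, which limits precision, and in these bulk samples fewer cells of a type and less RNA per cell cannot be told apart. Rb1 fell 9.37-fold in null ASC and 2.47-fold in null BM-MSC, and the falls differed by 1.92 on the log2 scale (SE 0.07, adjusted p = 3.02e-05, limma). Trp53 fell 57.7-fold in null ASC and 3.39-fold in null BM-MSC, and was at least 74.4-fold lower in the tumor line than in wild-type BM-MSC. The sources used here do not say whether these probes lie in the excised exons. By the same probe, on the log2 scale relative to each array's 75th percentile, Rb1 read 0.94 and 0.82 in null BM-MSC. It read -1.61 and -1.67 in null ASC and -1.68 and -1.66 in the tumor line. The part of the Rb1 and Trp53 signal left in null BM-MSC in the marrow results was not tested. On the log2 scale relative to each array's 75th percentile, Xist, the X-inactivation RNA, read 2.33 and 2.47 in wild-type BM-MSC, -3.92 and -4.27 in null BM-MSC, and -1.07 and -1.31 in the tumor line. Ddx3y, a Y-linked gene, read 1.93 and 1.91 in wild-type and 2.28 and 2.18 in null BM-MSC and was at least 170-fold lower in the tumor line than in null BM-MSC. Xist was 4.94 and 4.47 in wild-type ASC and 4.84 and 4.72 in null ASC, above all marrow arrays, and Ddx3y differed by -0.93 between null and wild-type ASC (adjusted p = 3.91e-04, limma). The part of these differences in the results was not tested.

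All 10 mesenchymal stromal markers were above background in every group, but their levels moved with the groups. In null against wild-type BM-MSC Nt5e rose by 3.53 and Thy1 (-1.56), Ly6a (-1.36) and Vcam1 (-1.14) fell, and in the tumor line Eng changed by -5.23 against null BM-MSC. Of 9 pericyte and smooth muscle markers, 5 were above background on both arrays in every group. The summed level of the list, in multiples of each array's 75th percentile, was 865 to 958 in wild-type ASC and 851 to 886 in null ASC. It was 1120 to 1310 in wild-type BM-MSC, 1460 to 1510 in null BM-MSC and 39.5 to 39.7 in the tumor line. Outside the tumor line nearly all of this sum was Acta2 and Tagln. Against wild-type BM-MSC, 3 of the 5 tested markers were lower in the tumor line and 2 were higher. The higher ones were Cspg4 (mean 2.81 in wild-type BM-MSC, 3.42 in the tumor line) and Mcam (2.44 and 3.13). Cspg4 had a mean of -2.06 in wild-type ASC, a difference that the sums do not show. Myeloid markers were above background for 7 to 9 of 10 genes per group, with summed levels between 17.7 and 41.4. Itgam gave the largest part of each sum, with 4.92 and 4.65 in wild-type ASC and 3.23 and 2.98 in the tumor line. Ptprc and Adgre1 were dim, with means of -4.87 and -3.95 in wild-type ASC. The sums therefore do not measure myeloid RNA as a whole. Endothelial markers were above background for 2 to 4 of 8 genes per group. The part of these cell types in the values below was not tested.

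Probes for 3 paralogous receptors show how far the array can tell this family apart. The Fgfr1 and Fgfr4 probes lie at nearly matching places of the coding sequences, and the Fgfr3 probe lies further downstream. Of the 3 probes, only the Fgfr4 probe is the one whose levels are reported as the gene's. The Fgfr3 probe shown is the second Fgfr3 probe of the values given later, and the reported Fgfr1 and Fgfr3 levels come from other probes. The 60-base probes below lie near the end of the kinase domain in the coding sequence, on mouse build mm9, at chr8:26684061-26684120 for Fgfr1, chr5:34077856-34078090 for Fgfr3 and chr13:55269212-55269271 for Fgfr4, each on the plus strand. The Fgfr3 span is longer than its probe because the alignment has a gap. Capitals mark the longest run shared with the Fgfr1 probe.
Fgfr1: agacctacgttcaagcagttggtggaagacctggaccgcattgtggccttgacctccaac
Fgfr3: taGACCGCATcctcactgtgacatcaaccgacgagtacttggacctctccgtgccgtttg
Fgfr4: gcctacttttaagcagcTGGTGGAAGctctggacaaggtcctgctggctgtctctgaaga
The longest shared run was 9 bases for Fgfr4 and 8 bases for Fgfr3. In the ungapped overlap with the most identical bases, 35 of 58 bases were identical between the Fgfr1 and Fgfr4 probes, and 24 of 52 between the Fgfr1 and Fgfr3 probes. The overlap of the Fgfr1 and Fgfr3 probes does not line up their marked run. It therefore does not measure how alike these genes are at matching places. One member needs a caution from its sequence. The Fgf23 probe with the highest signal, at chr6:127030758-127030817, opens with a CA repeat, shown in capitals in its first 30 bases.
Fgf23: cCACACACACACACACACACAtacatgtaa
A repeat of these 20 bases also stood in other probes, 22 of 55681 on the array in all, and the other Fgf23 probe was above background in no group. The Fgf23 values below are therefore values of this probe.

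Levels below are log2 of the scanner's processed signal minus the array's 75th percentile, given as array 1 and array 2 of each group. Levels of different probes are not compared. A change is a difference of group means with its standard error (SE) from limma, and p is adjusted by Benjamini-Hochberg over 22595 genes, with 0.05 as the threshold. Where a probe is well above background on no array of 1 group, the difference is given as "at least" a fold.

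Between null and wild-type BM-MSC, the receptors Fgfr1, Fgfr2 and Fgfr3 and the ligands Fgf18, Fgf21, Pdgfc and Pdgfd were higher in the null cells, and Fgf7 and Pdgfra were lower. In all, 17 of 26 members passed the threshold, 11 higher and 6 lower, where 39.0% of all genes tested passed, 19.6% higher and 19.3% lower. A change of at least 2-fold was reached by 6 members, where 8.18% of all genes reached it. The median absolute change was 0.51 over the members and 0.25 over all genes. Between null and wild-type ASC, Fgf10, Fgf18, Fgfrl1 and Pdgfa were lower in the null cells and Pdgfra and Pdgfd were higher. Here 15 of 26 members passed, 7 higher and 8 lower, where 41.0% of all genes tested passed, 21.1% higher and 19.9% lower. At least 2-fold changes were found for 6 members, with 9.06% of all genes as the background.

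The change in marrow minus the change in fat passed the threshold for 17 of 26 members, where it did so for 31.4% of all genes tested. It was positive for 13 of them, where 14.7% of all genes were called positive and 16.7% negative, and these 13 included all 5 FGF receptors. It reached at least 2-fold for 12 members and for 9.87% of all genes. Among members above background in all 4 groups, Fgf18 had the largest positive value and Fgf7 the largest negative one. The median of this difference was 0.59 over the members and 0 over all genes.

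Null BM-MSC against null ASC gave 19 of 26 members past the threshold, 13 higher and 6 lower in marrow, against a background of 55.2%, 25.2% higher and 30.0% lower. Of these members 15 differed at least 2-fold, with a background of 19.0%. Wild-type BM-MSC against wild-type ASC gave 17 of 26, 7 higher and 10 lower, against 53.7%, 25.2% higher and 28.5% lower. Here 10 differed at least 2-fold, with a background of 17.9%. In both comparisons Fgf7, Fgfr2, Fgfr3, Pdgfc, Pdgfd, Pdgfrb and Pdgfrl were higher in the marrow cells, and Fgf2, Fgf10 and Fgf21 were lower, as was Fgf1, which entered the test through wild-type ASC. Fgf9 also passed as lower in both, although it was above background in neither wild-type group. Its call in the wild-type comparison, -1.16, was lost in 11 of 18 alternative ways of processing. The value was -0.18 with normexp background correction and -0.35 with the authors' series matrix.

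The tumor line differed from null BM-MSC in 23 of 26 members, 9 higher and 14 lower, where 69.1% of all genes tested passed, 35.1% higher and 34.0% lower, and 18 members differed at least 2-fold, where 28.9% of all genes did. It differed from wild-type BM-MSC in 20 of 26, 8 higher and 12 lower, where 67.4% passed, 33.9% higher and 33.5% lower, and 16 members differed at least 2-fold, where 28.1% of all genes did. Pdgfra, Fgf10 and Fgfrl1 were higher in the tumor line in both, and Fgfr2, Fgfr3, Fgf7, Fgf18, Pdgfd and Pdgfrb were lower. These comparisons share their marrow samples with each other and with those above, so the values stand side by side and are not independent.

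**Figure D1:**
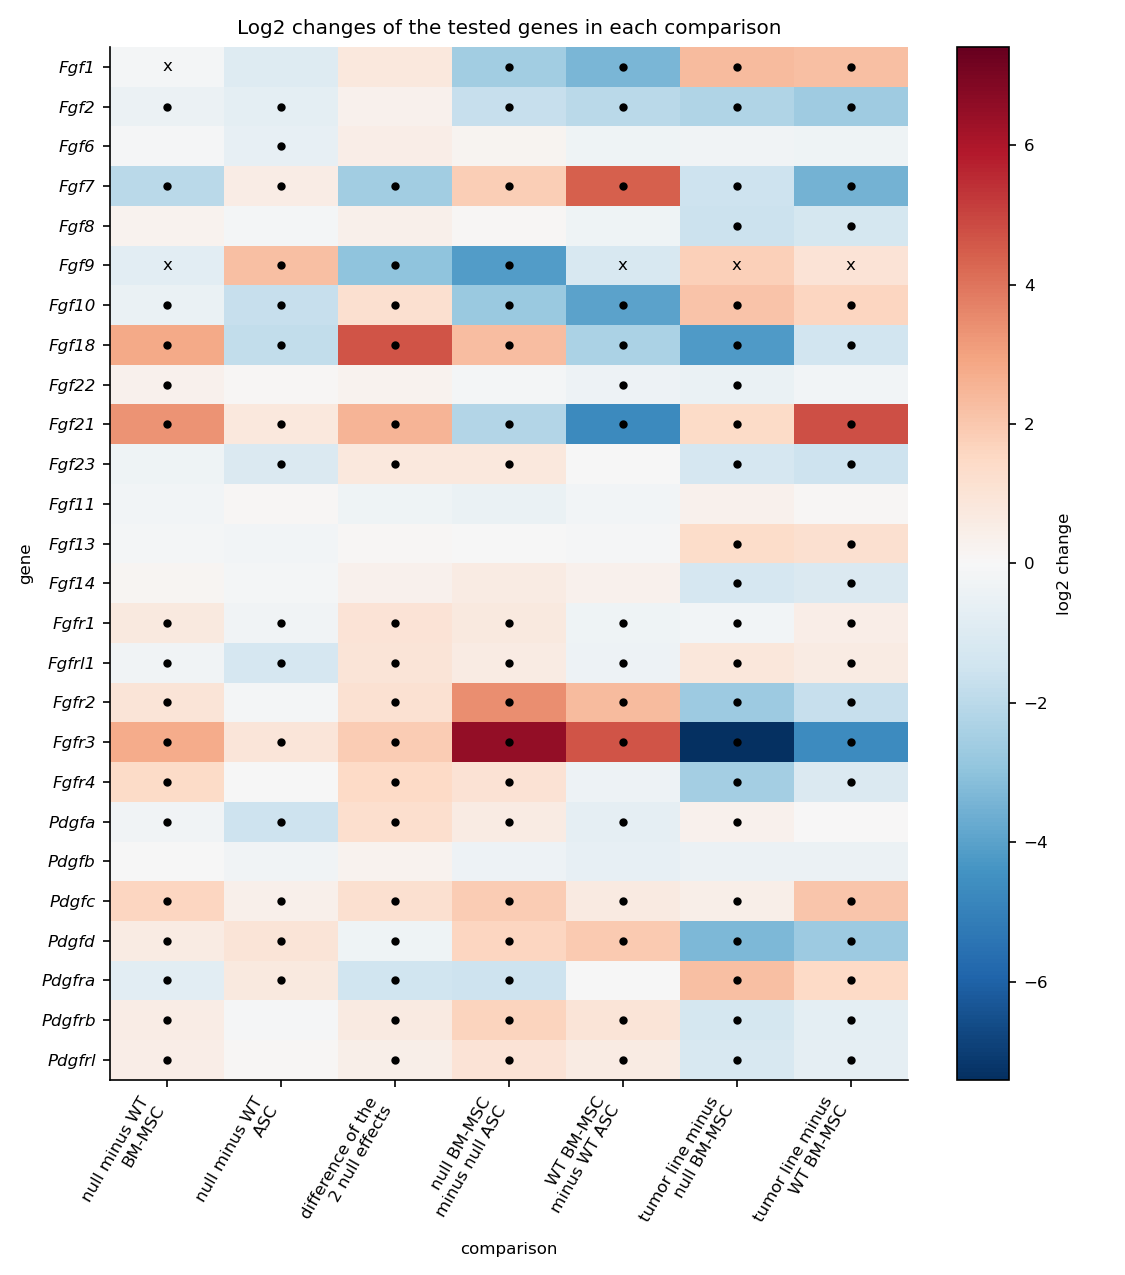
Heat map of the log2 change of the 26 tested members in the 7 comparisons. A cross marks a probe well above background on no array of either group, whatever its p. Elsewhere a dot marks an adjusted p under 0.05. Fgf9 passed the threshold under a cross in wild-type BM-MSC against wild-type ASC and in the tumor line against null BM-MSC. Fgfr3 spans the widest range, from 6.54 in null BM-MSC against null ASC to -7.41 in the tumor line against null BM-MSC.

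Among the FGF receptors, Fgfr3, the receptor known for restraining growth plate cartilage, moved most. Fgfr3 read -4.40 and -3.96 in wild-type ASC, -3.55 and -3.04 in null ASC, 0.31 and 0.67 in wild-type BM-MSC, 3.20 and 3.30 in null BM-MSC, and -4.15 and -4.17 in the tumor line. Both marrow groups lay above both fat groups and above the tumor line, with no overlap. The null effect was 2.76 in BM-MSC (6.77-fold, SE 0.22, adjusted p = 1.88e-04) and 0.89 in ASC (adjusted p = 0.0181). The change in marrow exceeded that in fat by 1.87 (SE 0.31, adjusted p = 0.00527). In the tumor line Fgfr3 fell by 7.41 from null BM-MSC (170-fold, adjusted p = 5.62e-07). A second Fgfr3 probe gave the same directions with smaller changes, 2.05 for null against wild-type BM-MSC and -3.76 for the tumor line against null BM-MSC, and with the mean of all Fgfr3 probes the last value was -4.26. The change in null ASC was not past the threshold with normexp background correction (0.32, adjusted p = 0.0751), with only the compared groups in the fit (adjusted p = 0.0925), without wild-type ASC replicate 1 (0.67, adjusted p = 0.0867) or without null ASC replicate 2 (0.63, adjusted p = 0.0806).

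Fgfr2, a receptor used by osteoprogenitors and, in another splice form, by epithelium, read -1.26 and -1.11 in wild-type ASC, -1.36 and -1.27 in null ASC, 1.13 and 1.22 in wild-type BM-MSC, 2.13 and 2.15 in null BM-MSC, and -0.54 and -0.50 in the tumor line. The marrow groups were again the high ones and did not overlap any other group. Fgfr2 rose by 0.97 in null BM-MSC (1.96-fold, SE 0.07, adjusted p = 1.04e-04), and its change of -0.13 in null ASC did not pass (adjusted p = 0.171). The marrow change exceeded the fat change by 1.10 (SE 0.09, adjusted p = 4.03e-04). The tumor line was 6.34-fold lower than null BM-MSC and 3.24-fold lower than wild-type BM-MSC.

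Fgfr1, the main FGF receptor of mesenchymal cells, read 6.27 and 6.32 in wild-type ASC, 6.02 and 6.02 in null ASC, 5.97 and 6.05 in wild-type BM-MSC, 6.76 and 6.72 in null BM-MSC, and 6.55 and 6.50 in the tumor line. The null BM-MSC arrays were the highest, and null ASC overlapped wild-type BM-MSC. Fgfr1 rose by 0.73 in null BM-MSC (SE 0.05, adjusted p = 1.09e-04) and fell by 0.28 in null ASC (adjusted p = 0.00537), so the changes ran in opposite directions and differed by 1.00 (adjusted p = 2.12e-04). All 3 Fgfr1 probes gave these directions. The small difference of the tumor line from null BM-MSC, -0.21, was -0.16 with the mean of the probes (adjusted p = 0.134) and not past the threshold in 2 fits that left out an array (adjusted p = 0.0547 and 0.0514).

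Fgfr4 read -3.33 and -3.46 in wild-type ASC, -3.36 and -3.47 in null ASC, -3.39 and -4.12 in wild-type BM-MSC, -2.42 and -2.23 in null BM-MSC, and -4.45 and -5.24 in the tumor line, where 1 of 2 arrays was above background. Its signals were dim, and only the null BM-MSC arrays and the tumor arrays stood apart from the rest. The rise of 1.43 in null BM-MSC (SE 0.31, adjusted p = 0.0122) was not past the threshold with the mean of the probes (0.30, adjusted p = 0.306), without wild-type BM-MSC replicate 2 (1.06, adjusted p = 0.0573) or without null BM-MSC replicate 2 (1.34, adjusted p = 0.0643). The difference between the marrow and fat changes, 1.45 (adjusted p = 0.0497), was not past it in 9 of 18 alternatives, and without single arrays its adjusted p reached 0.131. Fgfr4 probes also disagreed: a further probe was above background only in the tumor line and there at least 2.33-fold higher than in null BM-MSC, whereas the probe above fell by 2.52. The further probe met the condition for testing only through the tumor line, so its being higher there was fixed by that condition.

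Fgfrl1, a receptor-like protein without a kinase domain, read 5.45 and 5.46 in wild-type ASC, 4.21 and 4.25 in null ASC, 5.10 and 5.09 in wild-type BM-MSC, 4.83 and 4.82 in null BM-MSC, and 5.68 and 5.67 in the tumor line. No pair of groups overlapped, with null ASC lowest and the tumor line highest. Fgfrl1 fell by 1.23 in null ASC (2.34-fold, SE 0.04, adjusted p = 8.26e-06) and by 0.27 in null BM-MSC (adjusted p = 0.00243). The difference between these changes was 0.96 (adjusted p = 1.16e-04).

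**Figure D2:**
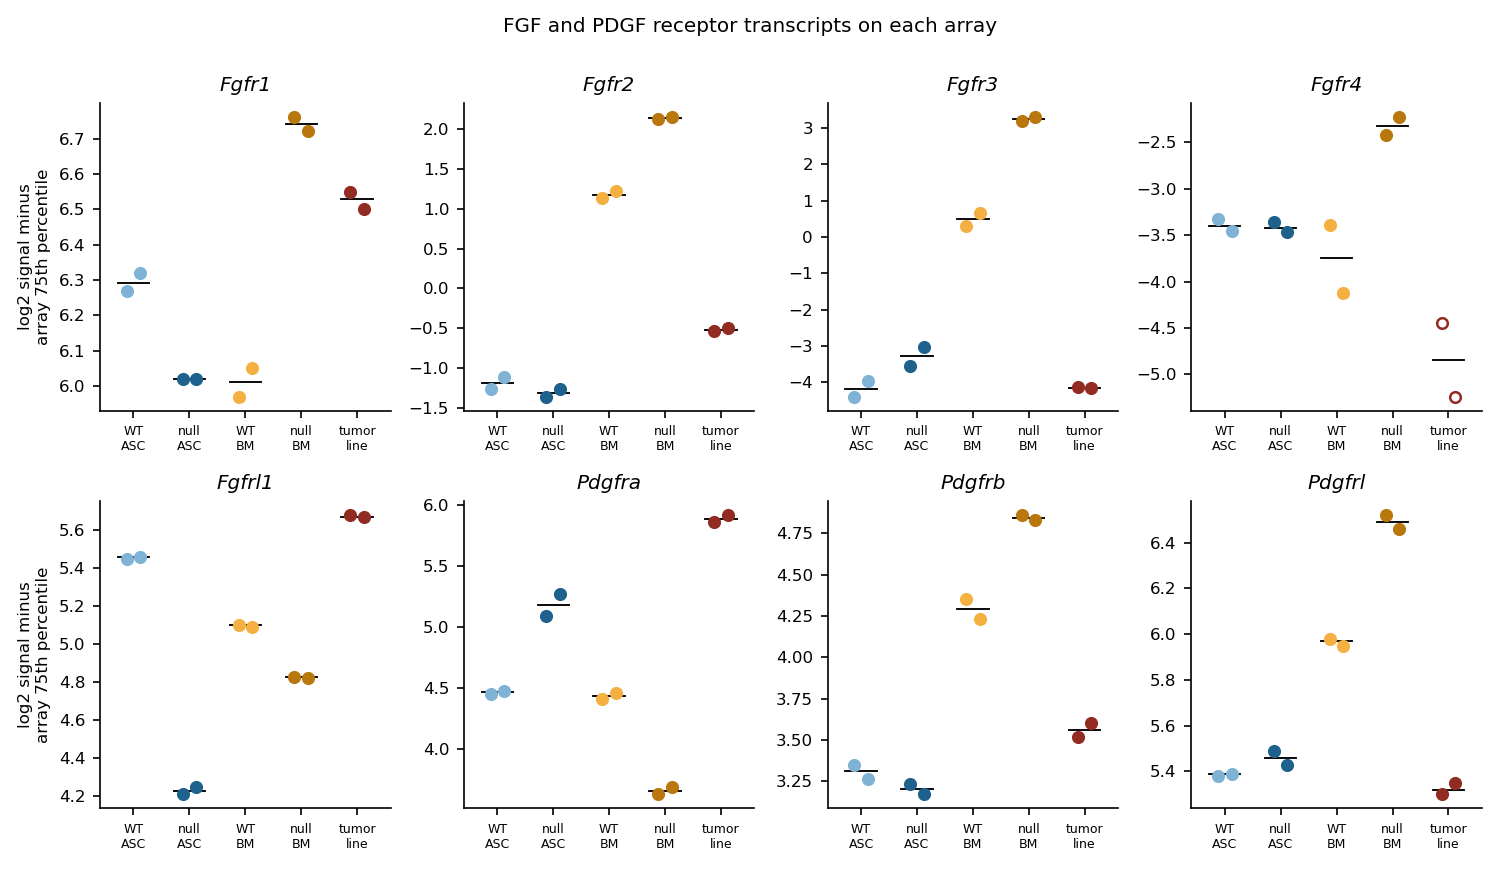
Levels of the 8 FGF and PDGF receptor genes in the 5 groups, as log2 signal minus the array's 75th percentile, with a scale of its own in each panel; points are arrays, lines are group means and open points mark groups above background on fewer than 2 arrays. Fgfr3 and Fgfr2 are highest in null BM-MSC, and Pdgfra is highest in the tumor line and lowest in null BM-MSC.

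Of the 9 secreted paracrine FGF ligands tested, Fgf18, a regulator of bone and cartilage growth, moved in opposite directions in the null cells of the different tissues. Fgf18 read 1.23 and 1.10 in wild-type ASC, -0.69 and -0.64 in null ASC, -1.14 and -1.27 in wild-type BM-MSC, 1.67 and 1.55 in null BM-MSC, and -2.75 and -2.46 in the tumor line. High values were in wild-type ASC and null BM-MSC, and no groups overlapped. Fgf18 rose by 2.82 in null BM-MSC (7.04-fold, SE 0.11, adjusted p = 1.34e-05) and fell by 1.83 in null ASC (3.55-fold, adjusted p = 5.05e-05). The difference between these changes was 4.64 (SE 0.15, adjusted p = 2.13e-05). In the tumor line Fgf18 was 18.6-fold lower than in null BM-MSC and 2.64-fold lower than in wild-type BM-MSC. The second Fgf18 probe, which overlaps the first, gave the same directions.

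Fgf7, the keratinocyte growth factor, did the reverse. Fgf7 read 2.32 and 2.22 in wild-type ASC, 2.85 and 2.79 in null ASC, 6.71 and 6.65 in wild-type BM-MSC, 4.77 and 4.57 in null BM-MSC, and 3.14 and 3.15 in the tumor line. Wild-type BM-MSC stood far above all other groups and the fat groups were lowest, with no overlap. The change was -2.01 in null BM-MSC (4.02-fold lower, SE 0.08, adjusted p = 1.31e-05) and 0.55 in null ASC (adjusted p = 0.00172). These changes differed by -2.56 (SE 0.11, adjusted p = 3.97e-05). Wild-type BM-MSC exceeded wild-type ASC by 21.2-fold, and the tumor line was 11.6-fold lower than wild-type BM-MSC.

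Fgf10, a close relative of Fgf7 that acts on epithelium and on fat precursors, read 2.78 and 2.86 in wild-type ASC, 1.15 and 1.13 in null ASC, -1.10 and -1.16 in wild-type BM-MSC, -1.55 and -1.72 in null BM-MSC, and 0.40 and 0.56 in the tumor line. The fat groups lay above the tumor line and the tumor line above both marrow groups. Fgf10 fell by 1.68 in null ASC (3.2-fold, SE 0.08, adjusted p = 2.58e-05) and by 0.50 in null BM-MSC (adjusted p = 0.00384, a change of -0.33 with normexp correction), and the changes differed by 1.18 (adjusted p = 7.13e-04). The tumor line exceeded null BM-MSC by 4.33-fold.

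Fgf2, the basic FGF used to expand stromal cultures, read -1.10 and -0.97 in wild-type ASC, -1.76 and -1.81 in null ASC, -3.11 and -2.99 in wild-type BM-MSC, -3.41 and -3.53 in null BM-MSC, and was not well above background in the tumor line (-5.76 and -5.65). Its levels fell in that order with no overlap. Fgf2 fell by 0.75 in null ASC (SE 0.08, adjusted p = 5.10e-04), a call lost with the mean of the probes (-0.17, adjusted p = 0.396). The other Fgf2 probe in that mean was above background on no array. The Fgf2 change in null BM-MSC was -0.42 (adjusted p = 0.00698), a call lost in 3 of 18 alternatives. It was -0.09 with normexp background correction (adjusted p = 0.319), -0.41 with quantile normalization (adjusted p = 0.0638) and -0.11 with the mean of the probes (adjusted p = 0.603). The tumor line was at least 3.27-fold lower than null BM-MSC.

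Fgf9, a ligand of the mesenchyme in limb and lung development, read -5.46 and -5.23 in wild-type ASC, -3.48 and -2.78 in null ASC, -6.92 and -6.10 in wild-type BM-MSC, -7.09 and -7.44 in null BM-MSC, and -5.12 and -5.84 in the tumor line. It was above background in null ASC only, and these arrays did not overlap any other group. There Fgf9 was at least 3.97-fold higher than in wild-type ASC and at least 3.6-fold higher than in null BM-MSC, which follows in part from how it entered the test. Fgf1, the acidic FGF, read -3.35 and -3.38 in wild-type ASC, -4.71 and -3.94 in null ASC, -6.08 and -7.43 in wild-type BM-MSC, -6.79 and -7.03 in null BM-MSC, and -4.08 and -5.02 in the tumor line. It was above background on both arrays of wild-type ASC alone, on 1 array each of null ASC and the tumor line, and on none in the marrow groups. Wild-type BM-MSC was at least 3.76-fold lower than wild-type ASC, the group through which Fgf1 entered the test. The tumor line was at least 1.34-fold higher than null BM-MSC and at least 1.66-fold higher than wild-type BM-MSC, and both calls were lost with normexp correction and with dim signals raised to the detection limit.

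Fgf8, an organiser of limb and brain development, read -4.40 and -4.30 in wild-type ASC, -4.81 and -4.12 in null ASC, -4.68 and -4.61 in wild-type BM-MSC, -4.00 and -4.73 in null BM-MSC, and -5.88 and -5.98 in the tumor line. Most of the 4 culture groups overlapped and the tumor line lay below them, not well above background. It was at least 1.76-fold lower there than in null BM-MSC (adjusted p = 0.00272), a call lost with the mean of the probes. Fgf6, known from muscle, changed by -0.61 in null ASC (SE 0.14, adjusted p = 0.0136) and passed in no other comparison. That call was lost with the mean of the Fgf6 probes (-0.18, adjusted p = 0.63), with only the compared groups in the fit (adjusted p = 0.0963) and without wild-type ASC replicate 2 (adjusted p = 0.0713), and the value was -0.39 without null ASC replicate 2. Fgf22, known from synapse formation, changed by 0.31 in null BM-MSC (adjusted p = 0.0205), a call lost in 7 of 19 alternatives and reversed in 1. A further Fgf22 probe was above background on both arrays of wild-type BM-MSC alone, the group through which it met the condition for testing. It was at least 2.38-fold higher there than in wild-type ASC, which follows in part from that condition. In the same comparison the probe above was lower in wild-type BM-MSC by 0.40 on the log2 scale.

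**Figure D3:**
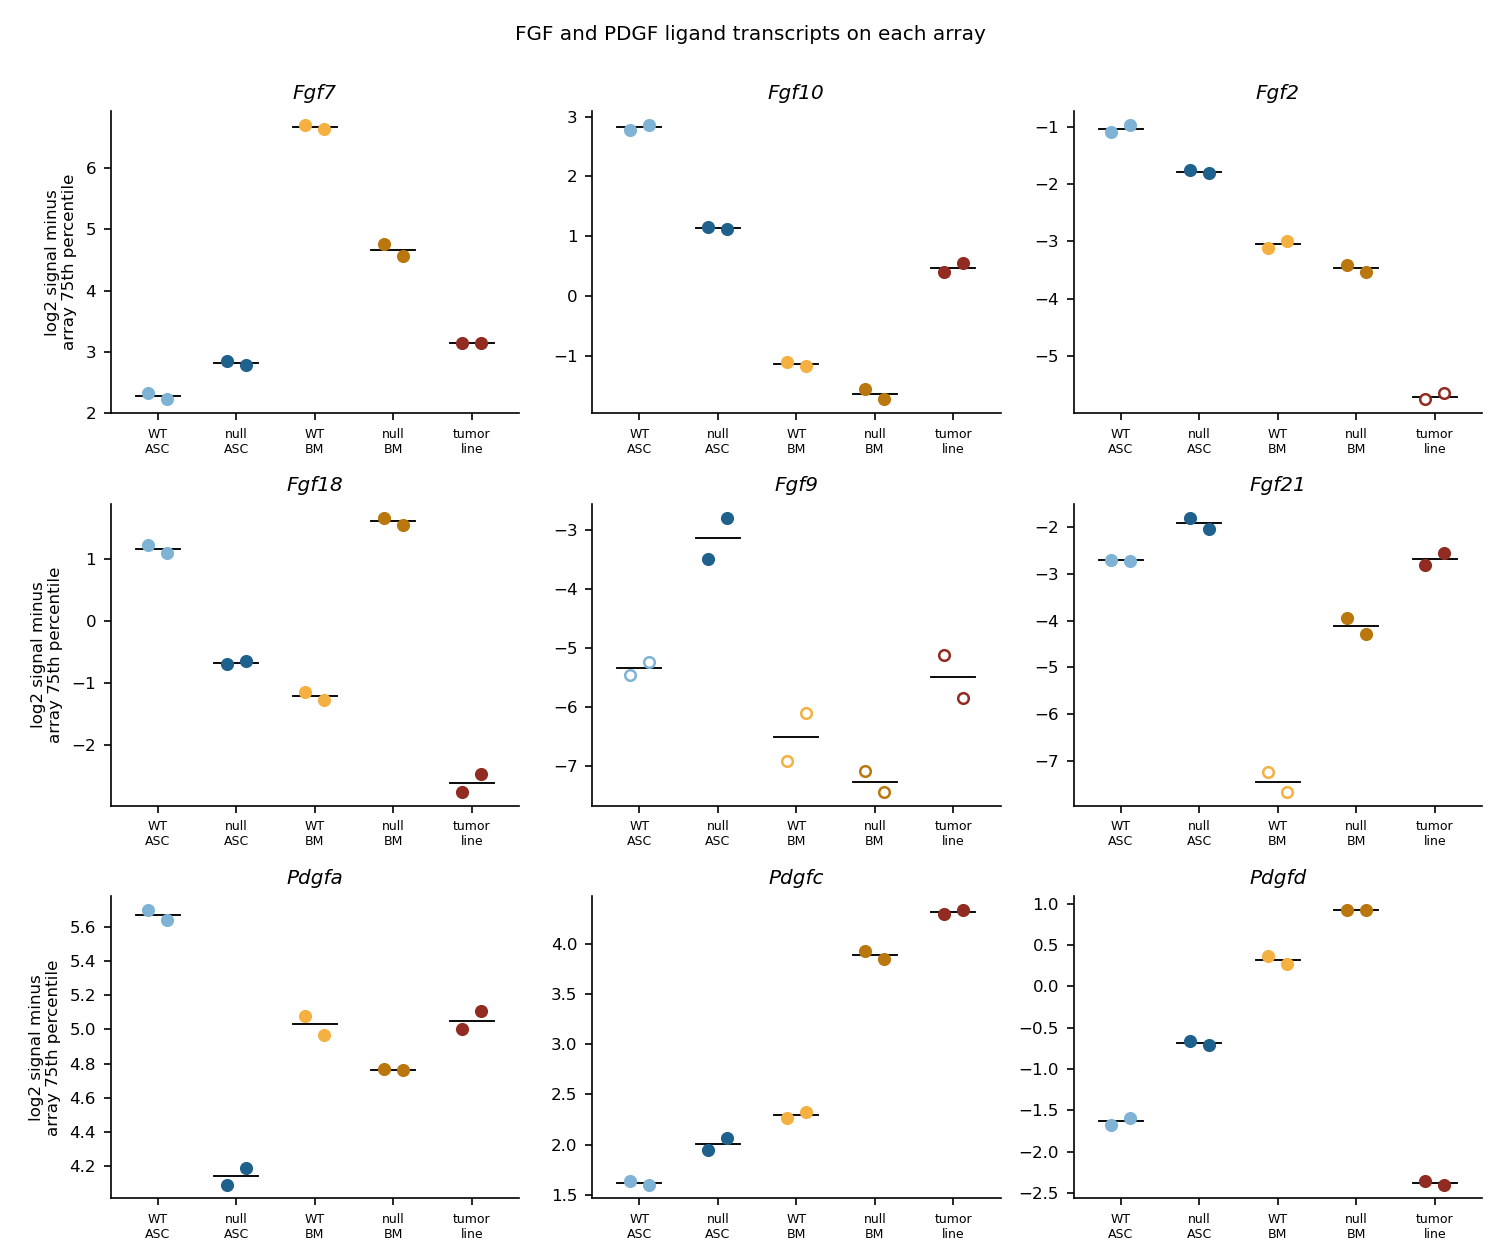
Levels of 9 FGF and PDGF ligand genes in the 5 groups, as log2 signal minus the array's 75th percentile, with a scale of its own in each panel; points are arrays, lines are group means and open points mark groups above background on fewer than 2 arrays. Fgf18 is high in wild-type ASC and null BM-MSC, whereas Fgf7 is highest in wild-type BM-MSC and Fgf10 in wild-type ASC.

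Among the endocrine FGFs, which act at a distance through Klotho co-receptors, Fgf21 is a hormone of fasting and metabolic stress. Fgf21 read -2.71 and -2.72 in wild-type ASC, -1.80 and -2.05 in null ASC, -7.24 and -7.66 in wild-type BM-MSC, -3.95 and -4.28 in null BM-MSC, and -2.82 and -2.56 in the tumor line. Wild-type BM-MSC was not well above background, and every other group lay above it. Fgf21 was at least 2.24-fold higher in null than in wild-type BM-MSC (3.34 in the fit, SE 0.18, adjusted p = 4.46e-05, and 0.56 with normexp correction), and 0.79 higher on the log2 scale in null ASC (adjusted p = 0.014), a call lost without single arrays in 3 fits. The difference between the changes, 2.54 in the fit (adjusted p = 7.80e-04), was 0.11 with normexp correction (adjusted p = 0.504) and 0.37 with dim signals raised (adjusted p = 0.363). The tumor line was at least 6.01-fold higher than wild-type BM-MSC.

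The repeat-bearing Fgf23 probe, named for the phosphate hormone of bone, read 4.51 and 4.33 in wild-type ASC, 3.41 and 3.26 in null ASC, 4.38 and 4.39 in wild-type BM-MSC, 4.02 and 4.16 in null BM-MSC, and 2.97 and 2.72 in the tumor line. Wild-type ASC overlapped wild-type BM-MSC, and the tumor line was lowest. It fell by 1.09 in null ASC (SE 0.11, adjusted p = 4.25e-04), a value of -0.43 with the mean of both Fgf23 probes. Of the co-receptors, Kl was above background on at most 1 array of any group, and Klb on both arrays of the marrow groups.

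The intracellular homologous factors Fgf11 to Fgf14 bind sodium channels and are not secreted. Fgf11 varied by 0.48 between its highest and lowest group means and passed in no comparison. Fgf13 read -3.94 and -4.65 in wild-type ASC, -4.58 and -4.46 in null ASC, -4.43 and -4.33 in wild-type BM-MSC, -4.93 and -4.12 in null BM-MSC, and -3.10 and -3.27 in the tumor line. The tumor arrays lay above all others, most of which overlapped. Fgf13 rose by 1.34 in the tumor line against null BM-MSC (SE 0.31, adjusted p = 0.00768), and by 0.34 with normexp correction. Its rise of 1.19 against wild-type BM-MSC (adjusted p = 0.0132) was not past the threshold without either of 2 arrays (adjusted p = 0.0594 and 0.0611). A further Fgf13 probe was above background in the tumor line alone and at least 8.68-fold higher there than in null BM-MSC. This further probe met the condition for testing only through the tumor line, so its being higher there was fixed by that condition. Fgf14 read -3.05 and -1.93 in wild-type ASC, -3.08 and -2.22 in null ASC, -2.23 and -2.16 in wild-type BM-MSC, -1.95 and -2.14 in null BM-MSC, and -3.22 and -3.34 in the tumor line. The other 2 Fgf14 probes were above background on no array, so these are values of 1 probe. The tumor arrays were lowest, and the duplicates of each ASC group lay far apart. Against wild-type BM-MSC, Fgf14 changed by -1.09 in the tumor line, a call lost in 9 of 19 alternatives. It was reversed in 1, at 0.04 with the mean of its probes. Its change of -1.24 against null BM-MSC (SE 0.40, adjusted p = 0.03) was not past the threshold in 5 of 19 alternatives.

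Among PDGF ligands, Pdgfa, which binds Pdgfra, read 5.70 and 5.64 in wild-type ASC, 4.09 and 4.19 in null ASC, 5.08 and 4.97 in wild-type BM-MSC, 4.77 and 4.76 in null BM-MSC, and 5.00 and 5.11 in the tumor line. Null ASC was lowest and wild-type ASC highest, and the tumor line overlapped wild-type BM-MSC. Pdgfa fell by 1.53 in null ASC (2.89-fold, SE 0.07, adjusted p = 1.77e-05). Its fall of 0.26 in null BM-MSC (adjusted p = 0.0218) was lost in 5 of 19 alternatives, with an adjusted p of 0.0601 with only the compared groups in the fit. The changes differed by 1.27 (adjusted p = 2.45e-04).

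Pdgfc, a ligand released from its CUB domains by proteases such as Plat, read 1.64 and 1.60 in wild-type ASC, 1.95 and 2.07 in null ASC, 2.26 and 2.32 in wild-type BM-MSC, 3.93 and 3.85 in null BM-MSC, and 4.30 and 4.34 in the tumor line. No groups overlapped, and its level rose in that order. Pdgfc rose 3.03-fold in null BM-MSC (1.60, SE 0.06, adjusted p = 1.31e-05) and 1.31-fold in null ASC (0.39, adjusted p = 0.00277). The changes differed by 1.21 (adjusted p = 2.20e-04), and the tumor line exceeded wild-type BM-MSC by 4.08-fold.

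Pdgfd, a ligand of Pdgfrb, read -1.68 and -1.59 in wild-type ASC, -0.66 and -0.71 in null ASC, 0.37 and 0.27 in wild-type BM-MSC, 0.92 and 0.92 in null BM-MSC, and -2.36 and -2.40 in the tumor line. Marrow groups were highest and the tumor line lowest, with no overlap. Pdgfd rose by 0.95 in null ASC (SE 0.06, adjusted p = 5.21e-05) and by 0.60 in null BM-MSC (adjusted p = 3.91e-04). The difference of -0.34 between these rises (adjusted p = 0.0201) was lost in 7 of 19 alternatives, with -0.12 under normexp correction (adjusted p = 0.317). In the tumor line Pdgfd was 9.88-fold lower than in null BM-MSC. Pdgfb, the ligand of endothelium and platelets, was dim in every group and passed in no comparison.

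Of the PDGF receptors, Pdgfra, which marks mesenchymal progenitors, read 4.45 and 4.48 in wild-type ASC, 5.09 and 5.27 in null ASC, 4.41 and 4.46 in wild-type BM-MSC, 3.63 and 3.69 in null BM-MSC, and 5.86 and 5.92 in the tumor line. The wild-type groups overlapped, while null ASC lay above them, null BM-MSC below them and the tumor line above all. Pdgfra rose by 0.71 in null ASC (1.64-fold, SE 0.07, adjusted p = 3.40e-04) and fell by 0.78 in null BM-MSC (1.71-fold, adjusted p = 2.96e-04). The difference between these changes was -1.49 (SE 0.10, adjusted p = 1.65e-04). The tumor line exceeded null BM-MSC by 4.7-fold and wild-type BM-MSC by 2.74-fold.

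Pdgfrb, the receptor of pericytes and stroma, read 3.35 and 3.26 in wild-type ASC, 3.23 and 3.17 in null ASC, 4.35 and 4.23 in wild-type BM-MSC, 4.86 and 4.83 in null BM-MSC, and 3.52 and 3.60 in the tumor line. Both marrow groups lay above the tumor line and the tumor line above both fat groups, whose levels were close. Pdgfrb rose by 0.56 in null BM-MSC (SE 0.06, adjusted p = 8.26e-04), and its change of -0.11 in null ASC did not pass (adjusted p = 0.226). The difference was 0.66 (adjusted p = 0.00235). In the tumor line Pdgfrb was 2.43-fold lower than in null BM-MSC. Of the pericyte and smooth muscle markers in the same comparison, Tagln (-6.50), Acta2 (-5.97), Myh11 (-3.62) and Cspg4 (-0.70) were lower and Mcam (0.54) was higher, and their part in the Pdgfrb value was not tested.

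Pdgfrl, a secreted receptor-like protein without a kinase domain, read 5.38 and 5.39 in wild-type ASC, 5.49 and 5.43 in null ASC, 5.98 and 5.95 in wild-type BM-MSC, 6.52 and 6.46 in null BM-MSC, and 5.30 and 5.35 in the tumor line. The marrow groups were highest, null above wild-type, and the other groups lay close together below them. Pdgfrl rose by 0.52 in null BM-MSC (SE 0.05, adjusted p = 3.41e-04), the value in null ASC was 0.07 (adjusted p = 0.278), and the difference was 0.45 (adjusted p = 0.00369). It was 2.24-fold lower in the tumor line than in null BM-MSC.

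**Figure D4:**
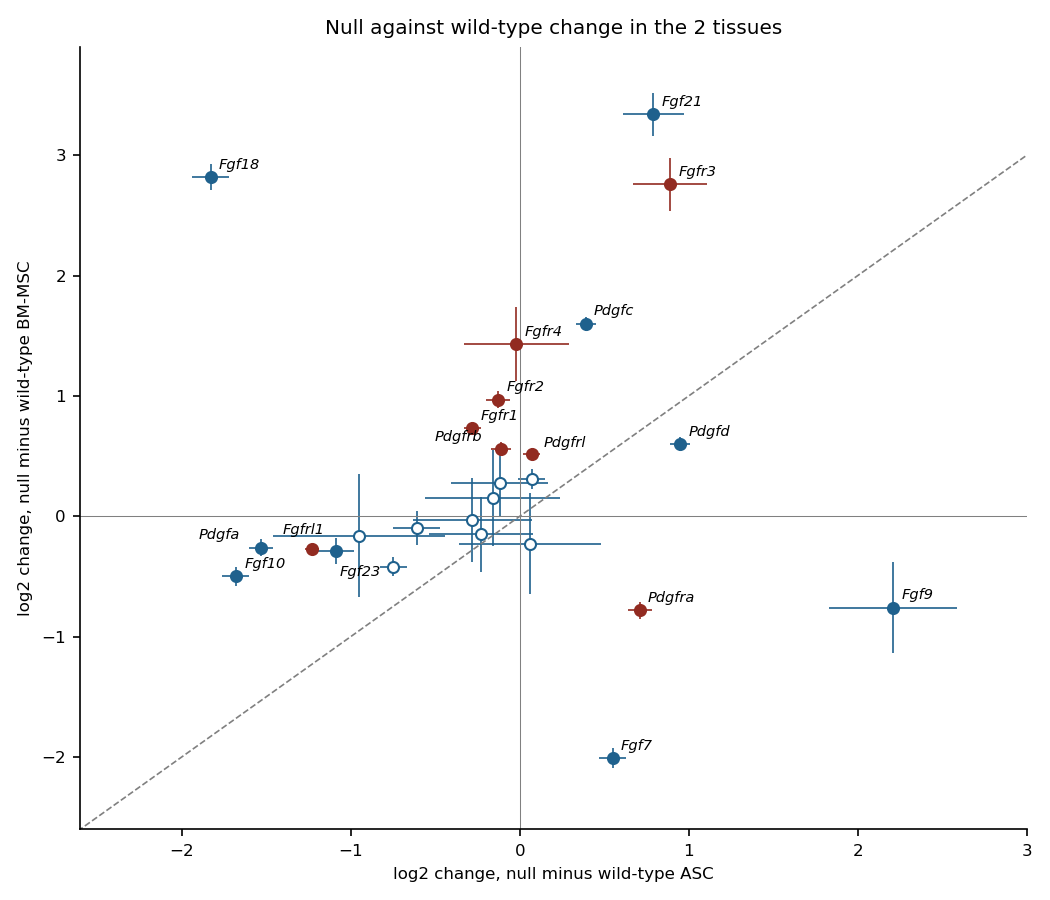
Log2 change of null against wild-type cells in ASC (horizontal) and in BM-MSC (vertical) for the tested members, receptors in red and ligands in blue, with standard errors as bars, filled points where the difference passed the threshold and a dashed line of equal change. Fgf18 (-1.83 and 2.82) and Pdgfra (0.71 and -0.78) lie in opposite quadrants far from the line, and the points for Fgf9 and Fgf21 are fitted values that include groups not above background.

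Promoter sequences are shown for the ligands and receptor with the largest changes in null BM-MSC among members above background in both marrow groups, Fgf18 and Fgfr3 (higher) and Fgf7 (lower). They come from RefSeq and are the 250 bases before the RefSeq start on GRCm38.p6: chr2:126034408-126034657, plus strand, for Fgf7, chr11:33147401-33147650, minus strand, for Fgf18, and chr5:33721474-33721723, plus strand, for the first of the Fgfr3 starts. Capitals mark GGGCGG, the core of the GC box that Sp1 binds, or its reverse complement CCGCCC.
Fgf7: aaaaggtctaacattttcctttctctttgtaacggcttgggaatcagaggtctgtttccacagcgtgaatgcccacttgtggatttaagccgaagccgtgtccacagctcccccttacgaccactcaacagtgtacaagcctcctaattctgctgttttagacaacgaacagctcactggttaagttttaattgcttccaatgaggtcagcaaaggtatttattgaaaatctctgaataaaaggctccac
Fgf18: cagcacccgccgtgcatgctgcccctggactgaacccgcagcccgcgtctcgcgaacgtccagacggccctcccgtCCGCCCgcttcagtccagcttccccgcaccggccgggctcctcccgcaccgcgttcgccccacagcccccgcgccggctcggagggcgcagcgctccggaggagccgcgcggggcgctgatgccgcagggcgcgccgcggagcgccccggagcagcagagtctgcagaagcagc
Fgfr3: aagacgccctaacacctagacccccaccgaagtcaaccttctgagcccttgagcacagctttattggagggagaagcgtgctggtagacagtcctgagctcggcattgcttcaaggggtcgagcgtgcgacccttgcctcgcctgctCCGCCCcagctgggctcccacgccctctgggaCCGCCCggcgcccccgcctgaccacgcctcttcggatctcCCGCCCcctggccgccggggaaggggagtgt
The Fgf7 window held 0 matches at 43.6% GC, the Fgf18 window 1 at 77.2% and this Fgfr3 window 3 at 66.8%. The motif stood in 20 of 32 member promoters, for 24 members found in the table, and in 32.7% of 32851 promoters of that length. The E2F-type motifs TTTCGCGC and TTTGGCGC, on either strand, stood in 0 of the 32 member promoters and in 0.256% and 0.417% of all promoters. A match is a description of letters, not a site.

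The pathway around these members was described with further gene lists. Feedback inhibitors and induced targets of the cascade numbered 21 tested genes. In null BM-MSC 7 rose and 8 fell, 71.4% of the list against 39.0% of all genes, with Dusp4 (1.06) and Etv4 (0.62) the largest rises and Fosl1 (-1.59) and Dusp6 (-1.06) the largest falls. Dusp4 and Dusp6 are MAP kinase phosphatases, Etv4 is an ETS factor induced by FGF and Fosl1 is an AP-1 subunit. In null ASC 9 rose, led by Etv4 (1.44) and Etv1 (1.25), and 10 fell, led by Spry2 (-1.17) and Fos (-1.12), in all 90.5% against 41.0%. The changes differed between tissues for 14 genes, 7 in each direction (66.7% against 31.4%), with Spry1 (1.35) and Spry2 (0.96) the largest positive and Fosl1 (-2.56) and Etv1 (-1.94) the largest negative values.

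Between tissues, null BM-MSC had 7 genes higher than null ASC, led by Etv1 (2.96) and Il17rd (2.26), and 11 lower, among them Spry3 (at least 4.27-fold) and Spry2 (-2.74), in all 85.7% of the list against 55.2% of all genes. Wild-type BM-MSC had 7 higher than wild-type ASC, led by Etv1 (4.90) and Fosl1 (2.81), and 12 lower, led by Spry2 (-3.70) and Dusp4 (-3.01), in all 90.5% against 53.7%. The tumor line had 15 genes higher and 5 lower than null BM-MSC (95.2% of the list called, 69.1% of all genes), a median change of 1.19 against -0.03 over all genes, with Fosl1 (3.83) and Etv4 (2.70) the largest measured rises, Spry3 at least 2.9-fold and Spred3 at least 3.78-fold higher, and Egr2 (-3.89) and Il17rd (-1.81), an FGF signalling inhibitor, falling. Against wild-type BM-MSC it was again 15 higher and 5 lower (95.2% against 67.4%), with Etv4 (3.32) and Fosl1 (2.24) the largest measured rises, Spry3 at least 3.57-fold higher, Egr2 (-3.38) and Il17rd (-2.09) lowest, and a median of 0.99 against -0.03.

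**Figure D5:**
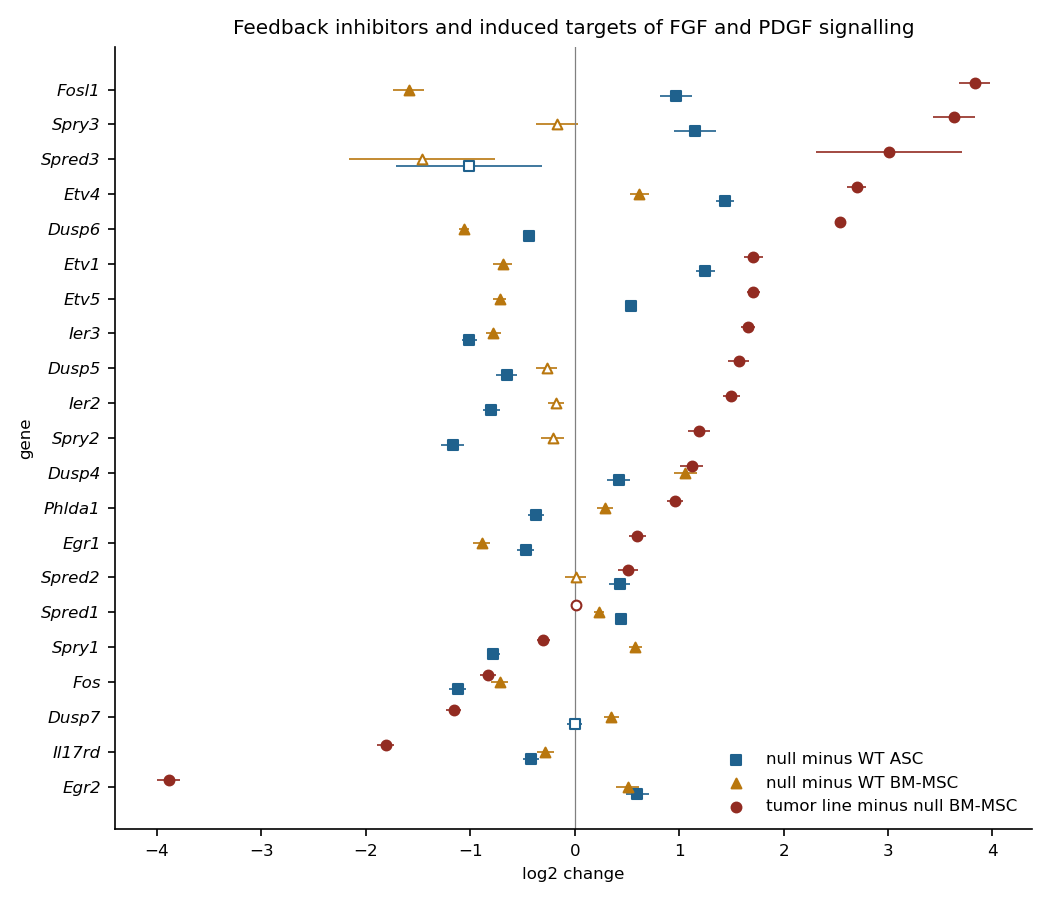
Log2 change of the 21 tested feedback inhibitors and induced targets in 3 comparisons, with standard errors as bars and filled points past the threshold. In the tumor line against null BM-MSC 15 genes lie above 0, with Fosl1 highest at 3.83, and Egr2 lowest at -3.89.

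Genes that hold, modify or release the ligands numbered 24 tested. In null BM-MSC 7 rose, led by Flrt3 (1.77), a membrane partner of FGF receptors, and the heparan sulfate proteoglycan Gpc1 (1.59), and 9 fell, led by Sdc4 (-0.69) and Fgfbp3 (-0.63), in all 66.7% of the list against 39.0% of all genes. In null ASC 5 rose, led by Flrt2 (0.69) and Gpc1 (0.53), and 11 fell, led by the sulfatase Sulf2 (-2.38) and Gpc6 (-1.31), in all 66.7% against 41.0%. The difference between tissues was positive for 11 genes, led by Sulf2 (1.82) and Flrt3 (1.47), and negative for Nrp1 (-0.58) and Sdc4 (-0.49), in all 54.2% against 31.4%. Null BM-MSC exceeded null ASC in 14 genes, led by Gpc1 (4.12) and the syndecan Sdc2 (3.25), and was lower in 4, led by Nrp1 (-1.07) and Gpc4 (-0.79), in all 75% against 55.2%. In wild-type cells marrow was higher in 11, again led by Gpc1 (3.06) and Sdc2 (2.03), and lower in 7, led by Gpc4 (-1.36) and Gpc6 (-0.78), in all 75% against 53.7%. The tumor line had 4 genes higher than null BM-MSC, among them Flrt1 (1.95) and Gpc3 (at least 1.7-fold), and 15 lower, led by Sdc2 (-2.24) and Sulf2 (-2.22), in all 79.2% against 69.1%. Against wild-type BM-MSC 8 were higher, among them Flrt1 (1.95) and Gpc3 (at least 2.1-fold), and 15 lower, led by Sulf2 (-2.79) and the protease Plau (-2.08), in all 95.8% against 67.4%. Gpc3 was above background in the tumor line alone and entered the test only through it, so its being higher there was fixed by that condition.

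The receptor-proximal relay and MAP kinase cascade, with 26 genes tested, had 0 genes that changed at least 2-fold in either null comparison, where 8.18% and 9.06% of all genes did. In null BM-MSC 5 rose, among them Akt1 (0.34), and 5 fell, led by Pik3r1 (-0.74), the regulatory subunit of PI3 kinase, and Ksr1 (-0.49), in all 38.5% of the list against 39.0% of all genes. In null ASC 3 rose, led by Nras (0.57), and 6 fell, led by the Ras activator Sos1 (-0.84) and Braf (-0.37), in all 34.6% against 41.0%. The tissue difference was positive for 8, led by Sos1 (0.81) and Hras (0.57), and negative for 5, led by Ksr1 (-0.89) and Pik3r1 (-0.76), in all 50% against 31.4%. Null BM-MSC exceeded null ASC in 8, among them Pik3ca (0.56), and was lower in 6, led by Map2k1 (-1.52) and Ksr1 (-0.83), in all 53.8% against 55.2%. Wild-type marrow was higher in 8, led by Pik3r1 (1.22) and Nras (0.85), and lower in 10, led by Map2k1 (-1.14) and Sos1 (-0.84), in all 69.2% against 53.7%. The tumor line had 9 higher than null BM-MSC, led by Gab1 (0.82) and Pik3ca (0.82), and 10 lower, led by Pik3r1 (-1.10) and Ptpn11 (-0.70), in all 73.1% against 69.1%. Against wild-type BM-MSC 10 were higher, led by Pik3ca (0.92) and Grb2 (0.79), and 10 lower, led by Pik3r1 (-1.84) and Src (-1.04), in all 76.9% against 67.4%.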

How the data were processed

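RNA from 5 groups of 2 mouse cultures was hybridised to 10 one-colour Agilent arrays. The deposited scanner files hold processed signals, an intensity per spot after background subtraction, with probe positions on mm9; per the file headers the software was Feature Extraction 10.7.3.1. The series matrix holds log2 values deposited by the authors, with their method not given in the sources used here; it served as an alternative. The submitters' processing notes name limma without a version.

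Spots of a probe were averaged, log2 values were centred on each array's 75th percentile, and each gene was represented by its brightest probe. The 22595 genes above background on each duplicate in 1 or more groups were fitted with limma 3.58.1 (R 4.3.3) over all 10 arrays, for 7 contrasts between group means, with Benjamini-Hochberg adjustment. The tool was tested on simulated data for null against wild-type BM-MSC, where it recovered 68% of 100 genes changed by 1 on the log2 scale and 86% of 100 changed by 2. Only these genes were changed in the simulation, whereas 39.0% of all genes passed in the real comparison. The adjusted threshold depends on that share, so recovery in the real data can differ. Named members were those past the threshold with a log2 change of at least 1 in any contrast; of the other lists, the 2 largest rises and falls per contrast. Some genes of these lists are not reported here. Probes of a gene that differed in direction were named too, and Xist and Ddx3y were chosen after the data were seen. Members and lists were chosen with earlier results of these data known. Labels call the duplicates independent cultures; replicate numbers paired no samples (correlations of deviations from -0.122 to 0.116). Alternatives covered background correction, normalization, filters, dim signals, probe choice, the value source, the samples in the fit, the replicate block and each array left out.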

Additional observations from a re-analysis of the deposited data

Results flagged for a closer look

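For 17 of 26 members tested, the change of null against wild-type cells differed between marrow and fat, where it did so for 31.4% of all genes tested. The test was of the difference itself (marrow change minus fat change on the log2 scale, limma, adjusted p under the 0.05 threshold, 2 arrays in each of the 4 groups). The FGF receptors gave 1.00 for Fgfr1, 1.10 for Fgfr2, 1.87 for Fgfr3, 1.45 for Fgfr4 and 0.96 for Fgfrl1. The FGF ligands gave 4.64 for Fgf18, 1.18 for Fgf10, 2.54 for Fgf21, 0.79 for Fgf23, -2.56 for Fgf7 and -2.97 for Fgf9. The PDGF ligands gave 1.27 for Pdgfa, 1.21 for Pdgfc and -0.34 for Pdgfd. The PDGF receptors gave -1.49 for Pdgfra, 0.66 for Pdgfrb and 0.45 for Pdgfrl. The values for Fgf9 and Fgf21 are fitted values that include groups not above background (for Fgf9 all but null ASC, for Fgf21 wild-type BM-MSC), so they are no measured size, and Fgf9, which entered the test through null ASC alone, became -0.64 with normexp correction. The values for Fgf21, Fgfr4 and Pdgfd were lost under some alternatives, and that for Fgf23 was reversed with the mean of its probes.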

How the results depend on the processing

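Alternatives were run for the 128 member results past the threshold. Of 2401 alternative values, 2296 kept their direction and their side of the threshold, 97 no longer passed and 8 reversed. With each array left out in turn, 1228 of 1280 values held, 52 no longer passed and 0 reversed. When the probes of a gene were averaged, reversals followed: Fgf22 became -0.37 in null against wild-type BM-MSC and 1.24 in wild-type BM-MSC against wild-type ASC, Fgf23 became -0.44 for the tissue difference, and Fgfr4 became 0.18 in the tumor line against null BM-MSC and 0.48 against wild-type BM-MSC, where Fgf1 became -0.05 and Fgf14 0.04. With dim signals raised to the lowest signal above background, Fgf9 became -0.20 in the tumor line against null BM-MSC, where both groups were dim. Normexp correction adds an offset and so shrinks changes of dim members.

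Counts of members past the threshold stayed within 1.5 times of the reported count. They ranged over all alternatives from 14 to 17 for null against wild-type BM-MSC, 12 to 17 for null against wild-type ASC, 14 to 18 for the difference, 14 to 21 for null BM-MSC against null ASC, 13 to 18 for wild-type BM-MSC against wild-type ASC, 16 to 24 for the tumor line against null BM-MSC and 14 to 22 against wild-type BM-MSC. These counts are of unlike sets: 34 members were tested with no filter, 18 with only probes above background on all arrays and 26 otherwise. For null against wild-type BM-MSC, 20.4% of all genes passed with no filter and 46.8% with all arrays above background. In the order above, the next pairs were 22.2% and 49.2%, 15.2% and 37.8%, 32.5% and 61%, and 31.8% and 59.5%. For the tumor line they were 43.9% and 75%, and 42.3% and 72.7%. With the replicate number as a block, the count for wild-type BM-MSC against wild-type ASC was 16 in place of 17. The block changed no other count, and the samples share only a number. Alternatives kept the probe choice and the tested genes unless the alternative itself changed them. With 2 arrays a group and dim probes, small changes of dim members are beyond these data.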

Other observations

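Probes of 1 gene did not always read alike, and the probe that stood for a gene was the brightest. A further Fgf1 probe was above background on both arrays of null ASC (-1.06 and -4.22), on 1 array of wild-type BM-MSC and in no other group, whereas the reported Fgf1 probe was above background on both arrays of wild-type ASC. The further Fgf13 probe read -1.96 and -1.76 in the tumor line and was at least 10.7-fold higher there than in wild-type BM-MSC. The further Fgfr4 probe read -4.07 and -3.45 in the tumor line and was at least 2.87-fold higher there than in wild-type BM-MSC. The further Fgf22 probe was at least 2.48-fold lower in the tumor line than in wild-type BM-MSC. These Fgf13 and Fgfr4 probes met the condition for testing only through the tumor line, and this Fgf22 probe only through wild-type BM-MSC. Their being higher in those groups was fixed in part by that condition.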
